A study of Caenorhabditis elegans with 15 samples.

Results

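The cytochrome P450 genes of Caenorhabditis elegans other than cyp-33A1 and the cyp-35 genes were followed in worms given filtrate of lake water or of a cyanobacterial culture. Members were taken from the array annotation: every probe set with a single symbol starting in cyp-, leaving out cyp-33A1 and the cyp-35 genes, and for a gene with several probe sets the one with the highest mean log2 signal over the 15 arrays. This gave 62 genes of the 73 that the annotation names cyp-, in families 13, 14, 23, 25, 29, 31, 32, 33, 34, 36, 37, 42, 43 and 44. Of the 62 genes, 30 had a mean log2 signal high enough to be tested and 32 did not.

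P450 enzymes are haem proteins of the endoplasmic reticulum, or in a few cases of mitochondria, that insert an oxygen atom into fat-soluble molecules. Those of the endoplasmic reticulum draw electrons from NADPH through the P450 reductase, which is EMB-8 in worms. Substrates of P450 enzymes are drugs and pollutants on one side and sterols, fatty acids and other molecules of the animal's own on the other. In worms many of these genes are active in the intestine, and several families respond at the transcript level to foreign chemicals. By descent, families 14, 33, 34 and 36 belong with the vertebrate CYP2 enzymes, 13 and 25 with CYP3, and 29, 31, 32, 37 and 42 with CYP4. CYP-44A1 is of the mitochondrial type.

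Whole N2 wild-type worms were exposed throughout life on agar with OP50 bacteria at 20 °C and collected on the first day of adulthood. The 5 groups, of 3 biological replicates each, were worms given filtrate of Lake Stößensee (Berlin) sampled in August, worms given the October sample of the same lake, worms given filtrate of a Microcystis aeruginosa batch culture, worms given Z-medium, and worms given water. Lake samples were used at 200% and the culture at 40% of the original content of AOBr. Water stands as the control of the lake samples and Z-medium as that of the culture. Filtration and lyophilisation are described for the lake and culture samples, and the labels leave unsaid whether the controls went through the same steps.

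The values are MAS5 signals, a linear intensity per probe set with every array scaled to a common trimmed mean. Array medians lay between 99.2 and 113. Markers of intestine, muscle, pharynx, epidermis, germ line and neurons were present, with 19 of 19 genes at or above the filter level. Before any comparison, 4 arrays stand apart from the rest: the replicate 1 arrays of August, October, Z-medium and water lay between -28.9 and -21.8 on the first principal component, and the other 11 between -0.20 and 36.1. Of the 30 tested P450 genes, 3 (10%) differed between replicate 1 and replicates 2 and 3 across the groups, against 18.1% of all probe sets in either direction. All 3 were lower in replicate 1: cyp-25A1 (log2 difference -0.61), cyp-25A2 (-0.34) and cyp-31A5 (-0.29). Of the 13529 probe sets tested, 996 were lower in replicate 1 and 1455 higher.

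A probe set was tested where its mean log2 signal over 15 arrays reached the 40th percentile, a linear signal of 57.9. The fit was limma on log2 signal over 13529 probe sets, with Benjamini-Hochberg adjustment within each comparison and a threshold of 0.05. Of the tested genes nearest that level, cyp-33E1 averaged 5.90 on the log2 scale, and of the untested genes cyp-33C7 averaged 5.82. Signals of different probe sets are not comparable as amounts of transcript, so each gene is set only against itself. Since whole worms were measured, fewer cells expressing a gene and less RNA per cell cannot be told apart.

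**Figure D1:**
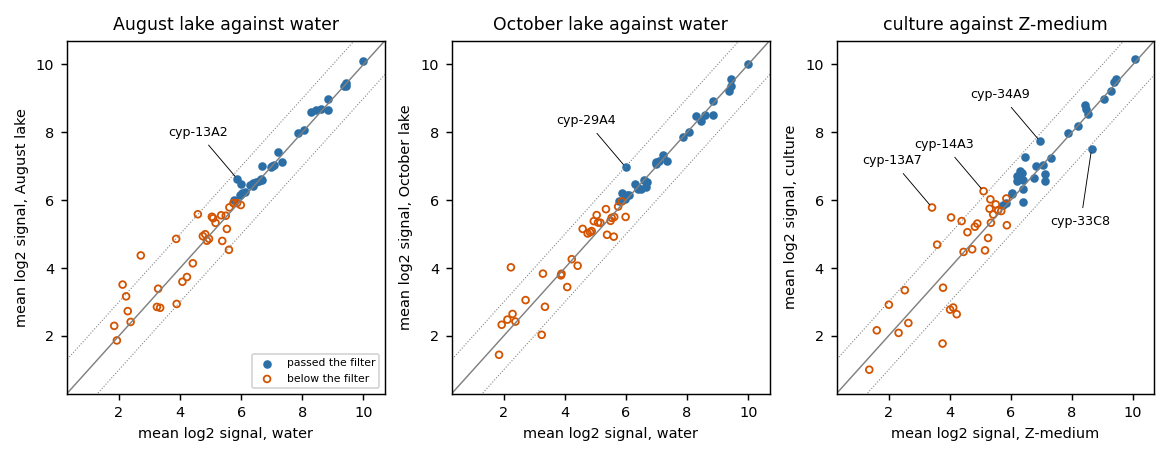
Mean log2 signal of all 62 P450 genes in each exposed group (vertical axis) against its control (horizontal axis), 3 arrays a group; filled points passed the filter and open points did not, the solid line marks equality and the dotted lines a 2-fold difference. Among the filled points only cyp-33C8 in the culture lies beyond a dotted line, and the open points of that panel include 4 above the upper dotted line, cyp-13A7 among them, and 4 below the lower one.

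The Microcystis culture was set against Z-medium to see which of these genes differ in worms given filtrate of a cyanobacterial culture. One of the 30 tested genes passed, cyp-33C8, which fell; the other 29 did not pass. Over all probe sets tested, 1.54% passed in either direction, 1.19% lower and 0.355% higher. The gene cyp-33C8 belongs to the largest of the worm's families in this set, with 17 members. Its signal was 172, 221 and 158 in the culture arrays, against 388, 402 and 411 in the Z-medium arrays. The 3 culture arrays lay below all 12 others, whose signals ranged from 275 to 464. The group means were 184 ± 33.2 in the culture and 400.1 ± 11.6 in Z-medium (SD, n = 3), a log2 change of -1.14 ± 0.18 (SE) with a 95% interval of -1.51 to -0.76 (limma adjusted p = 0.00315).

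The call for cyp-33C8 held with each of the 6 culture and Z-medium arrays left out, at log2 changes of -1.28 to -1.04. Without the 5 replicate 1 arrays the change was -1.12 (limma adjusted p = 0.00469). In the lake samples the same gene had 421, 458 and 371 in August and 275, 416 and 428 in October, against 337, 464 and 372 in water. Those groups overlap, and the log2 changes were 0.10 ± 0.18 for August and -0.08 ± 0.18 for October. The change in the culture minus the mean change in the lake samples was -1.14 ± 0.23 (interval -1.64 to -0.65), which missed the threshold (limma adjusted p = 0.0644). It passed without October replicate 1 (difference -1.25, adjusted p = 0.0130) and without culture replicate 2 (-1.29, adjusted p = 0.0381). No other tested member was past the threshold for this difference, where 0.266% of all probe sets were (0.0961% higher and 0.170% lower). An unadjusted p under 0.05 was found for 2 members, against 8.54% of all probe sets.

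Family 33 had 6 tested genes, of which cyp-33C8 alone passed. The log2 changes in the culture were -0.05 ± 0.18 for cyp-33C9, -0.07 ± 0.20 for cyp-33C4 and 0.19 ± 0.22 for cyp-33C5, none past the test. The gene cyp-33C9 had 191, 135 and 139 in the culture, against 168, 148 and 159 in Z-medium, and these overlap. The value for cyp-33E2, whose product takes part in making eicosanoids from polyunsaturated fatty acids, was 0.17 ± 0.18, and that for cyp-33E1 was 0.05 ± 0.25.

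Genes that came next by p in the culture pointed upward in 3 of 4 cases, without passing. The signal of cyp-34A9 was 260.4, 166 and 224 in the culture, against 137, 135 and 104 in Z-medium. In the lake groups it was 94.6, 93.9 and 97.0 in August and 93.0, 127 and 77.2 in October. All 3 culture arrays lay above the other 12, which ranged from 77.2 to 137. The log2 change was 0.78 ± 0.20 (interval 0.34 to 1.21, limma adjusted p = 0.0729). With quantile normalization or median scaling of the arrays it passed (adjusted p = 0.0386 for each, log2 changes of 0.89 for each), and without culture replicate 3 the adjusted p was 0.221. Its neighbour in family 34, cyp-34A8, had 602, 581 and 604 in the culture, against 546, 668 and 646 in Z-medium. That gene's log2 change was -0.05 ± 0.12, and its groups overlap.

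The neighbouring genes cyp-25A1 and cyp-25A2 both had positive changes in the culture. For cyp-25A1 the signals were 125, 186 and 164 in the culture, against 59.7, 83.9 and 139 in Z-medium. One Z-medium array exceeded one culture array, so the groups overlap, and the log2 change was 0.82 ± 0.31 (limma adjusted p = 0.221). For cyp-25A2 they were 417, 456 and 463 in the culture, against 292, 416 and 327 in Z-medium. These did not overlap by a margin of under 1 signal unit, with a log2 change of 0.38 ± 0.18 (adjusted p = 0.322). In Z-medium and in the culture alike, the replicate 1 array held the lowest of the 3 values for both genes. Both are among those lower in replicate 1 across the groups. At each replicate number the culture signal exceeded the Z-medium signal for both genes. Without Z-medium replicate 1, and with culture replicate 1 kept, the changes were 0.53 for cyp-25A1 and 0.27 for cyp-25A2.

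Family 29 had positive changes in the culture in 3 of 3 tested genes (median 0.36), where 50.8% of all probe sets were positive. It also had 3 of 3 positive in August, October and Z-medium, each against the same water arrays. The medians there were 0.30, 0.19 and 0.16, so the shared sign is not particular to the culture. The gene cyp-29A3, which like cyp-33E2 takes part in eicosanoid production, had 112, 109 and 132 in the culture, against 99.4, 58.3 and 85.1 in Z-medium (log2 change 0.57 ± 0.24, limma adjusted p = 0.27). The 2 groups did not overlap. For cyp-29A2 the signals were 398, 436 and 407 in the culture, against 344, 376 and 334 in Z-medium, again with no overlap and a smaller log2 change of 0.24 ± 0.13. The change of cyp-29A4 was 0.36 ± 0.23.

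Among the lower values was cyp-31A1, listed as a pseudogene in the RefSeq gene table. Its signals were 85.6, 96.1 and 105 in the culture, against 182, 113.9 and 127 in Z-medium, with no overlap (log2 change -0.53 ± 0.22, limma adjusted p = 0.252). The probe set carries the suffix that marks probes shared with related transcripts, so its signal may come from another gene. The intact family members cyp-31A2 and cyp-31A3, needed for the lipid barrier of the eggshell, are close copies that arrays may not separate. Their log2 changes were 0.12 ± 0.10 and -0.06 ± 0.12. The signals of cyp-31A2 were 1158, 1163 and 1139 in the culture, against 958, 1134 and 1112 in Z-medium. Its culture arrays lay above the Z-medium arrays by a narrow margin.

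Counted over the tested genes, the culture arrays lay wholly above the Z-medium arrays for 6 of 30 and wholly below for 2, against 7.85% and 11.3% of all probe sets tested, or 19.1% in either direction. An unadjusted p under 0.05 was found for 6 of 30, against 15.2% of all probe sets. A positive log2 change was seen in 19 and a negative one in 11, with a median of 0.10, where the median over all probe sets tested was 0.00 and 50.8% were positive. This split depends on the scaling: quantile normalization gave 24 positive and median scaling 26. Median scaling moved the median of all probe sets to 0.11 and that of the P450 genes to 0.21, and quantile normalization moved them to 0.03 and 0.12. Medians of tissue marker lists went both ways in the same comparison. They were 0.01 for 5 intestinal markers, 0.12 for 5 vit yolk genes, 0.18 for 3 germ line markers and 0.15 for 3 neuronal ones. For 2 muscle markers the median was -0.19. The 23 msp genes of sperm had a median log2 change of -0.37, with summed signals of 184690 to 300950 in the culture and 238300 to 326070 in Z-medium. Of 128 col collagen genes 89 were tested, with a median of -0.44 and sums of 321170 to 413200 in the culture and 386120 to 424030 in Z-medium. The median was -0.56 for 4 epidermal markers and -0.50 for 2 pharyngeal ones. All 23 msp genes were at or above the filter level. For replicate 1 minus replicates 2 and 3 across the groups, the medians had the opposite sign in every list. They were 0.52 for msp, 0.35 for col, 0.35 for epidermal, 0.39 for pharyngeal and 0.125 for muscle genes. For intestinal, vit, germ line and neuronal genes they were -0.03, -0.03, -0.10 and -0.06. Whether the culture and replicate 1 differences are related was not tested. The part of the marker genes in the P450 changes was not tested.

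**Figure D2:**
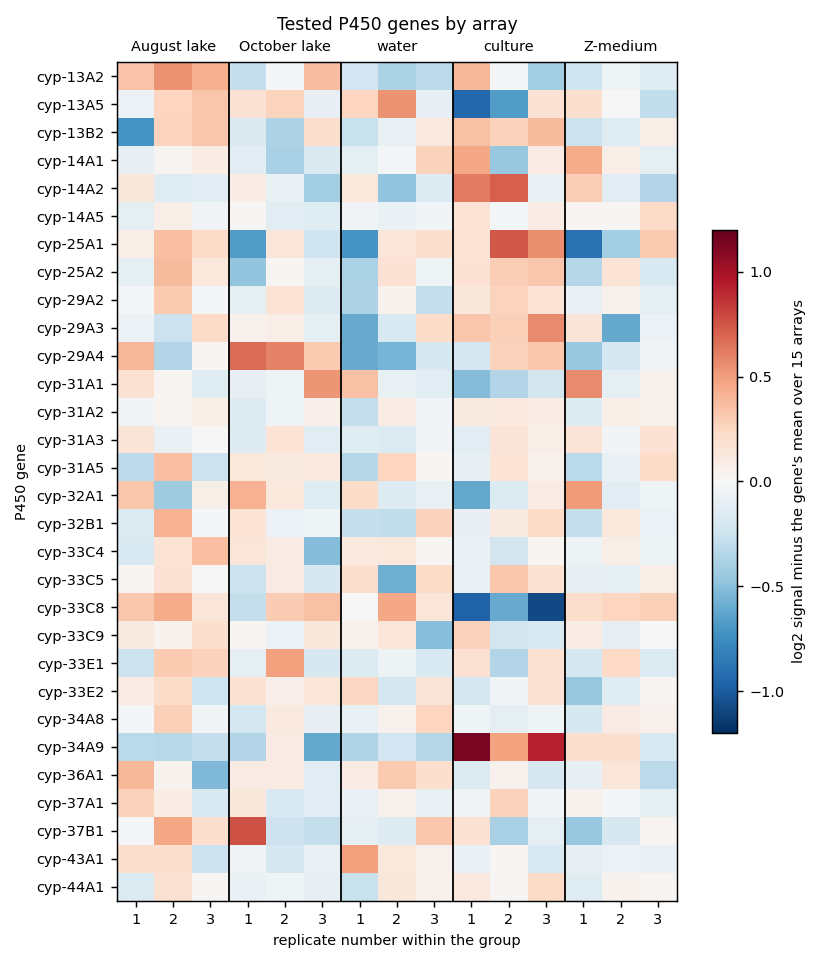
Log2 signal of the 30 tested P450 genes (rows) on each of the 15 arrays (columns, by group and replicate number) minus the gene's own mean over all arrays; red is higher and blue is lower. The culture columns are blue for cyp-33C8 and red for cyp-34A9, and the replicate 1 columns of October, water and Z-medium are blue for cyp-25A1.

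One of the 32 genes below the filter, cyp-13A7, is known in worms to be induced by the antibiotic rifampicin. The gene was singled out after its values were seen, because the fit without a filter, over 22548 probe sets, called it in the culture. The signals were 51.3, 68.7 and 47.5 in the culture, against 16.9, 8.68 and 8.42 in Z-medium. In the other groups they were 10.4, 10.9 and 10.2 in August, 13.2, 25.3 and 8.71 in October and 15.4, 6.997 and 8.55 in water. Every culture array lay above all 12 others, of which the highest was 25.3. The log2 change was 2.36 ± 0.49 (interval 1.32 to 3.40, limma adjusted p = 0.0384 without a filter). All these signals are near or below the filter level, where no detection call is available, which limits how well the size of the difference is known. With 50 added to every signal before log2 the change was 0.78 (adjusted p = 0.00244).

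The call for cyp-13A7 was lost in 5 of the 6 fits that left out a culture or Z-medium array. It was kept without Z-medium replicate 1 (adjusted p = 0.0468), and in the other 5 fits the adjusted p lay between 0.0693, without culture replicate 1, and 0.171, without culture replicate 2. The 6 fits gave log2 changes of 2.19 to 2.69. It was also lost without the 5 replicate 1 arrays (change 2.74, adjusted p = 0.0710) and with only culture and Z-medium arrays in the fit (adjusted p = 0.0956). Without a filter, 0.696% of all probe sets passed in this comparison. The other gene called by that fit was again cyp-33C8, with adjusted p = 0.00483.

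Among further genes below the filter, cyp-14A3 had 62.5, 91.1 and 79.7 in the culture, against 30.8, 51.4 and 26.0 in Z-medium. The gene cyp-34A7 had 39.4, 44.4 and 51.9 in the culture, against 10.6, 13.9 and 30.8 in Z-medium. Neither pair of groups overlapped, and neither gene passed the unfiltered fit (log2 changes of 1.16 ± 0.38 and 1.44 ± 0.39, limma adjusted p = 0.206 and 0.116). Both were chosen after their values were seen. Over all 62 genes, the culture arrays lay wholly above Z-medium for 9 and wholly below for 4, against 7.37% and 8.90% of all probe sets without a filter, or 16.3% in either direction. Standard errors of the untested genes were 0.23 to 1.18 on the log2 scale, against 0.10 to 0.32 for the tested ones in the same fit.

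**Figure D3:**
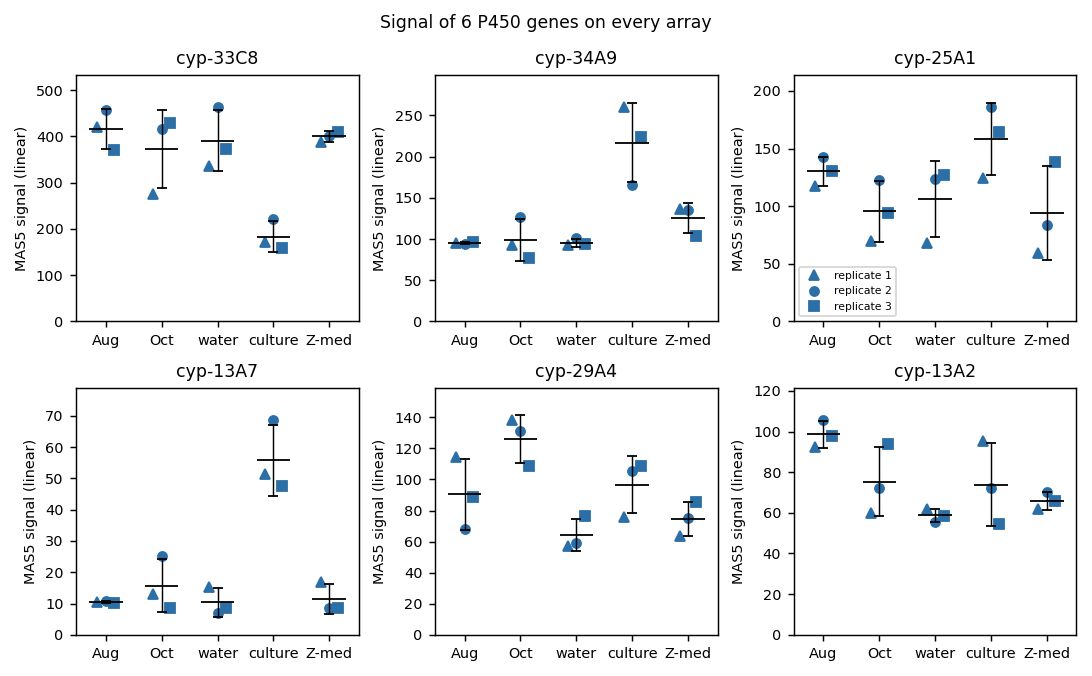
MAS5 signal (linear, vertical axis from 0) of 6 P450 genes on every array in the August, October, water, culture and Z-medium groups; points are arrays, with replicate 1 as triangles, replicate 2 as circles and replicate 3 as squares, and lines give the mean ± SD (n = 3). The culture arrays are the lowest of all for cyp-33C8 and the highest of all for cyp-34A9 and cyp-13A7.

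The August lake sample was set against water to ask which P450 genes differ in worms given filtrate of the August water. None of the 30 tested genes passed in limma, and 2 had an unadjusted p under 0.05, both higher. Over all probe sets 0.00739% passed and 3.05% had an unadjusted p under 0.05. The smallest p was that of cyp-13A2, with signals of 92.4, 106 and 98.0 in August, against 62.1, 55.7 and 58.5 in water. The groups did not overlap, as was so for 1 of 30 tested P450 genes and 7.19% of all probe sets. The log2 change was 0.75 ± 0.22 (interval 0.28 to 1.22, limma adjusted p = 1.00). In October the gene had 60.2, 72.2 and 94.0, a range that overlaps both August and water.

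Next by p in August were cyp-29A2, with 357, 451 and 359.8 in August against 279.5, 374 and 297 in water, and cyp-29A4, with 114.3, 68.4 and 88.5 in August against 57.2, 59.1 and 76.4 in water. Their log2 changes were 0.30 ± 0.13 and 0.47 ± 0.23 (unpaired SE), and the groups overlapped for both. At each replicate number, read as pairs for August and water, the August signal exceeded the water signal for both genes. After them came cyp-43A1 at -0.18 ± 0.14 and cyp-33C9 at 0.23 ± 0.18. The signals of cyp-43A1 were 449.7, 446 and 328 in August, against 550.1, 426 and 405 in water. Its groups overlap. The signals of cyp-33C9 were 170.3, 163 and 181 in August, against 163, 174 and 111 in water. Each of these 4 had an adjusted p of 1.00 in limma. The whole 95% interval of 28 of the 30 genes lay between -1 and 1 on the log2 scale, that is, within a 2-fold change either way. A positive change was seen in 22 of 30, with a median of 0.10 where all probe sets had -0.01 and 48.5% positive.

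For the October sample the comparison with water was made in the same way. Again none of the 30 tested genes passed in limma (0% of all probe sets did), and 2 had an unadjusted p under 0.05, against 2.11% of all probe sets. One was higher, cyp-29A4, with 138, 131 and 108 in October against 57.2, 59.1 and 76.4 in water. The October arrays lay above all water and Z-medium arrays. The log2 change was 0.98 ± 0.23 (interval 0.50 to 1.46), or a fold of 1.97, with an adjusted p of 1.00 in limma. Leaving out any of the 6 arrays gave 0.90 to 1.11. The August change of the same gene, measured against the same water arrays, was 0.47 ± 0.23.

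The other was lower: cyp-43A1, with 380.4, 339 and 370.4 in October against 550.1, 426 and 405 in water (log2 change -0.33 ± 0.14). The groups did not overlap. Z-medium arrays, at 366, 372 and 371, lay below water too, so that gene's water arrays were the highest group mean of the 5. Of the next genes by p, cyp-14A1 had 89.8, 75.0 and 86.9 in October, against 90.7, 96.3 and 118 in water, with a log2 change of -0.27 ± 0.22 and no overlap. The signals of cyp-29A2 were 337, 405 and 326 in October, against 279.5, 374 and 297 in water, and these overlap. The log2 changes of cyp-13A2 and cyp-29A2 were 0.34 ± 0.22 and 0.17 ± 0.13. In all, October arrays lay wholly above water for 1 tested P450 gene and wholly below for 3, against 3.75% and 3.81% of all probe sets, or 7.56% in either direction. The median change was 0.02, with 16 of 30 positive, where all probe sets had 0.00 and 51.1% were positive.

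**Figure D4:**
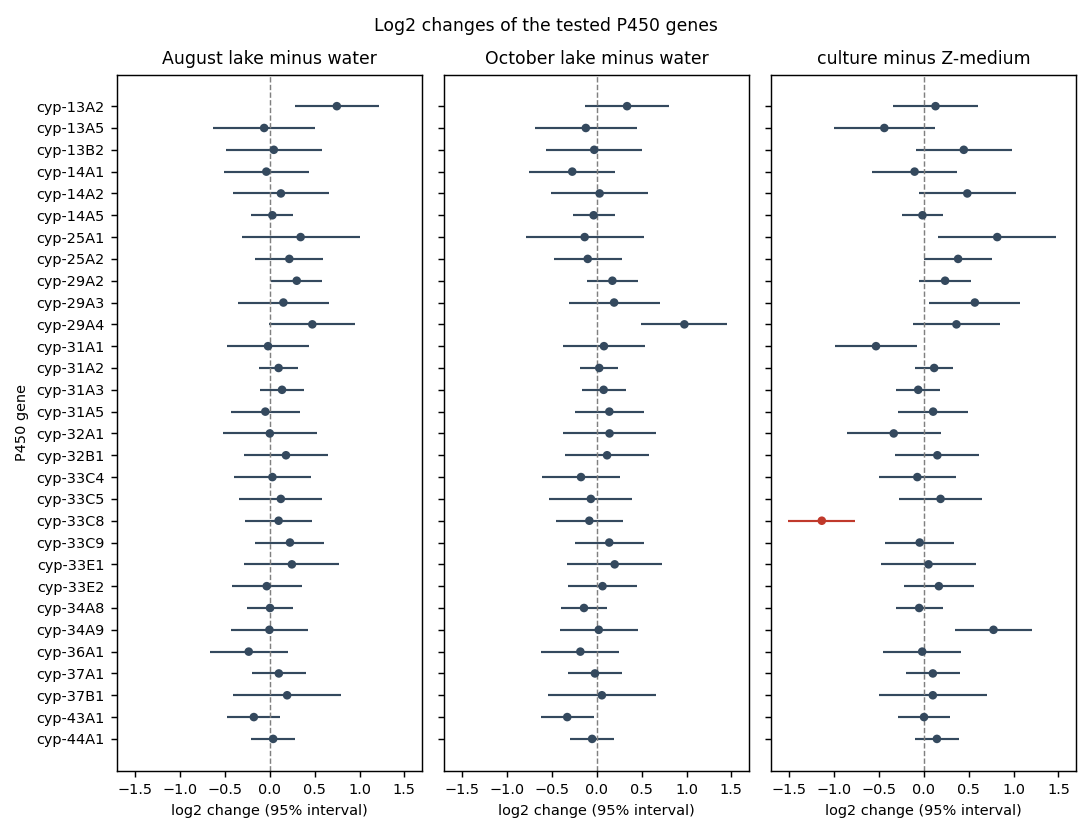
Log2 change (points) with its 95% interval (lines) of the 30 tested P450 genes in the August lake, October lake and culture comparisons, each against its control, from the limma fit on all 15 arrays. Red marks the 1 gene past an adjusted p of 0.05, cyp-33C8 in the culture. Other intervals that leave out 0 did not pass after adjustment: above 0, those of cyp-13A2 and cyp-29A2 in August, cyp-29A4 in October and cyp-34A9, cyp-25A1, cyp-25A2 and cyp-29A3 in the culture, and below 0, those of cyp-43A1 in October and cyp-31A1 in the culture.

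October and August worms were also set against each other, and 0 of 30 tested genes passed in limma, where 0.0148% of all probe sets did. An unadjusted p under 0.05 was found for 1 gene, against 2.59% of all probe sets. The smallest p values were those of cyp-29A4 (0.50 ± 0.23, unadjusted p = 0.0416 in limma) and cyp-13A2 (-0.41 ± 0.22, unadjusted p = 0.0822). For cyp-29A4 and cyp-13A2 October and August arrays overlapped. At each replicate number, read as pairs for these groups, cyp-29A4 was higher and cyp-13A2 lower in October than in August. The October arrays of cyp-14A1 lay below its August arrays, without passing. October minus August changes are the differences of the 2 lake effects themselves. A positive change was seen in 8 of 30 and a negative one in 22, with a median of -0.08, where all probe sets had 0.01 and 52% were positive. The same August arrays served in the August comparison with water, so the counts of the 2 comparisons are not independent.

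Between the controls, Z-medium against water, 0 of 30 passed in limma and 1 had an unadjusted p under 0.05, against 0.0222% and 2.34% of all probe sets. That gene was cyp-43A1, with 366, 372 and 371 in Z-medium against 550.1, 426 and 405 in water (log2 change -0.30 ± 0.14). The second by p was cyp-34A9, with 137, 135 and 104 in Z-medium against 92.1, 101 and 93.5 in water and a log2 change of 0.38 ± 0.20. Neither pair overlapped, as for 3 of 30 tested P450 genes and 6.72% of all probe sets. All 30 intervals lay between -1 and 1.

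The brightest genes of the remaining families did not pass in any comparison. The mitochondrial-type gene cyp-44A1 had 627, 797 and 710.1 in August, 663, 677 and 655 in October and 583, 773 and 728 in water. In the culture it had 763, 710.1 and 827, against 636, 725 and 718 in Z-medium. Its log2 changes were 0.04 ± 0.12, -0.05 ± 0.12 and 0.15 ± 0.12 in August, October and the culture. The interval for the culture ran from -0.10 to 0.39.

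The gene cyp-36A1, which acts downstream of the oxygen-sensing EGL-9 and HIF-1 pathway, had 186, 146 and 98.0 in August, 151, 151 and 129 in October and 152, 175 and 163 in water. Its October arrays lay below the water arrays (log2 change -0.18 ± 0.20), with no overlap. In the culture it had 126, 147 and 122.7, against 132, 156 and 113.8 in Z-medium (change -0.02 ± 0.20).

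For cyp-37A1 the signals were 293, 256 and 213 in August, 264, 212 and 221 in October and 228, 251 and 226 in water. They were 234, 293 and 237 in the culture, against 249.8, 237 and 223 in Z-medium. Its changes lay between -0.02 in October and 0.10 in August.

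For cyp-14A5 they were 254, 291 and 268 in August, 277, 251 and 249.8 in October and 267, 260.1 and 269 in water. In the culture this gene had 308, 271 and 294, against 281, 278 and 322 in Z-medium. Its changes of 0.03, -0.04 and -0.02 in August, October and the culture are smaller than the SE of 0.11.

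The gene cyp-13B2 had 54.1, 106 and 110.3 in August, 78.3, 68.0 and 102 in October and 73.4, 82.6 and 95.3 in water. In the culture it had 113, 107 and 114.3, against 73.9, 79.5 and 92.7 in Z-medium, with no overlap and a log2 change of 0.45 ± 0.25 (limma adjusted p = 0.412).

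For cyp-32A1 the signals were 162, 95.4 and 135 in August, 172, 141 and 116 in October and 149.5, 115 and 121 in water. They were 84.2, 115 and 137 in the culture, against 183, 117 and 124 in Z-medium (log2 change -0.34 ± 0.25). Its other probe set gave a change of the opposite sign, 0.22 ± 0.22, so this gene has no settled direction in the culture. Neither passed.

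In the lake groups, cyp-25A1 had 117, 143 and 130.3 in August, 69.8, 122.9 and 94.0 in October and 68.1, 123.3 and 127 in water. The signals of cyp-29A3 were 84.8, 74.5 and 105 in August, 92.7, 94.2 and 82.3 in October and 58.6, 78.8 and 104 in water. Those of the pseudogene cyp-31A1 were 139, 126 and 111 in August, 115, 118 and 177 in October and 156, 116 and 112 in water. For all 3 genes both lake groups overlapped water. Log2 changes lay between -0.14 and 0.34 for cyp-25A1, 0.15 and 0.19 for cyp-29A3 and -0.02 and 0.08 for cyp-31A1. At each replicate number cyp-25A1 was higher in August than in water, without passing. In the culture, cyp-13A2 had 95.2, 72.1 and 54.4, against 61.7, 70.4 and 65.6 in Z-medium. Its groups overlap there, with a log2 change of 0.13 ± 0.22.

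Also in the lake groups, cyp-25A2 had 344, 482 and 405 in August, 267, 376 and 344 in October and 284, 419.7 and 357 in water. For cyp-31A2 the signals were 1048, 1094 and 1135 in August, 965, 1038 and 1120.2 in October and 879.5, 1148 and 1050 in water. For cyp-34A8 they were 617, 761 and 611 in August, 538, 675 and 582 in October and 589, 649 and 745 in water. For all of these 3 genes each lake group overlapped water. At each replicate number, read as pairs for August and water, cyp-25A2 was higher in August than in water. Its log2 changes, with unpaired SE, were 0.22 ± 0.18 in August and -0.10 ± 0.18 in October. With replicate number as a block, no P450 gene was called in August.

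Families 23 and 42 have 1 gene each in the set, and neither reached the filter level. For cyp-23A1 the signals were 28.1, 25.002 and 12.6 in August, 6.68, 3.80 and 22.6 in October and 3.08, 8.91 and 10.3 in water, and 5.26, 10.6 and 22.0 in the culture against 26.7, 4.80 and 20.4 in Z-medium. Arrays of a group differed several-fold here. August arrays lay above water arrays, and the August change of 1.66 ± 0.81 in the unfiltered fit had an interval of -0.07 to 3.38. For cyp-42A1 they were 42.04, 48.9 and 21.9 in August, 56.0, 59.1 and 26.9 in October and 40.2, 48.6 and 50.7 in water, and 34.99, 56.7 and 54.9 in the culture against 44.9, 40.4 and 43.7 in Z-medium. Its groups overlapped throughout on this probe set. Its other probe set, also below the filter, had a log2 change of -0.44 in the culture, against 0.15 on the first. For cyp-23A1 the other probe set, below the filter too, gave 1.62 in August and 0.47 in the culture. The first probe set of cyp-23A1 gave -0.36 in the culture.

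The members share position as well as family. Of 59 genes placed among the protein-coding genes of the RefSeq table, 23 lie in 4 runs of 3 or more members with at most 2 other coding genes between neighbours. In the run of 8 genes from cyp-13A1 to cyp-13A8, only cyp-13A2 and cyp-13A5 were tested, with log2 changes in August of 0.75 ± 0.22 and -0.06 ± 0.27, and cyp-13A7 of the same run was higher in the culture in the unfiltered fit. In the run of 6 from cyp-34A5 to cyp-34A10, cyp-34A9 and cyp-34A8 were tested, with culture changes of 0.78 ± 0.20 and -0.05 ± 0.12. In the run of 4 from cyp-14A1 to cyp-14A4, the tested cyp-14A1 and cyp-14A2 had culture changes of -0.10 ± 0.22 and 0.48 ± 0.25. In the run of 5 from cyp-33C4 to cyp-33C7, the tested cyp-33C4 and cyp-33C5 had culture changes of -0.07 ± 0.20 and 0.19 ± 0.22. Both are on probe sets marked as sharing probes with other transcripts. The gene cyp-33C8 lies in no run. Differences between neighbours were not tested.

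Partner genes of the P450 system were looked at as a list of 36, of which 31 had a probe set and 24 were tested. In the lake comparisons none passed in limma, and in the culture 1 rose and 1 fell, where 0.355% of all probe sets were called higher and 1.19% lower. In August 0.00739% and in October 0% of all probe sets passed. The one that rose was fat-3, a desaturase gene on the route to polyunsaturated fatty acids, with a mean signal of 3035 in the culture and 2111 in Z-medium (log2 change 0.54 ± 0.11, limma adjusted p = 0.0250). The one that fell was nhr-114, a nuclear hormone receptor gene, with 984 in the culture and 1538 in Z-medium (-0.65 ± 0.14, adjusted p = 0.0304). With each culture or Z-medium array left out in turn, the number passing was 0 or 1. It was 0 without culture replicate 2, without culture replicate 3 and without Z-medium replicate 2.

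The reductase gene emb-8 had a mean of 788 in the culture and 777 in Z-medium, with log2 changes of 0.02 ± 0.12 in the culture, 0.03 ± 0.12 in August and 0.01 ± 0.12 in October. The xenobiotic receptor gene nhr-8 had 249 in the culture and 388 in Z-medium (-0.65 ± 0.21, limma adjusted p = 0.133). The hormone-making P450 gene daf-9, which has no cyp- symbol, had a change of -0.08 ± 0.19 in the culture. The median change of the tested partners was -0.02 in each of the 3 main comparisons, beside 0.00 for all probe sets in the culture and October and -0.01 in August.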

How the data were processed

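Biotin-labelled RNA of whole worms was hybridised to Affymetrix arrays, 1 per biological replicate, 15 in all. The authors deposited linear probe set signal intensity, made with MAS5 in Affymetrix Expression Console 1.2.0.20, per the submitters' processing notes. The trimmed mean was 500 on every array, so each had been scaled. The values hold no detection calls, and raw scans were not analysed here. Precision is limited by the 3 arrays a group.

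Log2 was taken of each signal, nothing being added beforehand. The 77 control probe sets were left out, and 13529 of the other 22548, whose average over the arrays reached percentile 40, were tested with limma 3.58.1 in R 4.3.3 (lmFit, eBayes with an intensity trend, 1 mean per group, 10 residual degrees of freedom). The 6 comparisons were August lake minus water, October lake minus water, culture minus Z-medium, October minus August, Z-medium minus water, and the change in the culture less the average change in both lake samples. P values were adjusted by Benjamini-Hochberg over all probe sets tested. Errors of changes are SE. The fit was tested on simulated data. For 3 arrays a side, the smallest p of an exact permutation test is 0.1, and such tests were left out.

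Gene names came from the array annotation, where 20766 probe sets have 1 symbol, 887 several and 895 none, and from the RefSeq gene table, used for gene order and pseudogenes. No coordinates are given, since no build is named for the array. Members and lists were chosen with earlier results of these data known. Array values are given for members past the test, the 5 with the smallest p in each main comparison, the 2 with the smallest p in each other one, and the brightest of each family.

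Replicate numbers are shared between groups. Deviations from group means correlated at 0.20 to 0.53 for August and water, 0.21 to 0.46 for October and August and 0.21 to 0.56 for Z-medium and water, which were read as pairs. They correlated at 0.06 to 0.47 for October and water and -0.03 to 0.36 for the culture and Z-medium, which were not. Groups were read as pairs where the correlation exceeded 0.1 at every replicate number. The main fit held no replicate term in any comparison, so its SE, intervals and p values are unpaired. Replicate number as a block was tried as an alternative.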

Additional observations from a re-analysis of the deposited data

Results flagged for a closer look

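The rise of cyp-13A7 in the culture lies outside the tested probe sets, because its mean over all arrays is below the filter. It was picked out because its culture arrays lay above every Z-medium array and the fit without a filter called it, with a log2 change of 2.36. Its mean signal was 55.8 in the culture and 11.3 in Z-medium, both under the filter level of 57.9, and the deposited values hold no measure of background.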

How the results depend on the processing

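Tried were no filter, a filter at the 60th percentile, an offset of 50, quantile normalization, median scaling, only the groups compared (not run for the difference between culture and lake effects, which needs all groups), a replicate block, the mean over a gene's probe sets, no replicate 1 arrays, and each array left out in turn. The number of P450 genes called stayed 0 in August, October, October against August and Z-medium against water under all of them. In the culture it was 1, and cyp-33C8 was called under every setting (adjusted p from 8.15e-05 to 0.0234). It became 2 without a filter (with cyp-13A7), 2 with quantile normalization and 2 with median scaling (with cyp-34A9 both times). With replicate number as a block it was 4 (with cyp-25A1, cyp-25A2 and cyp-34A9), although those replicate numbers were not read as pairs. For the difference between culture and lake effects the count was 0, or 1 with the replicate block, and 0 to 1 with 1 array left out. The block changed no other call of a P450 gene. For all probe sets, the culture count of 209 was 117 with only the groups compared, 89 to 100 without Z-medium replicate 1 or 2 or culture replicate 2 or 3, 534 without the replicate 1 arrays and 1245 with the block. The count of 36 for the difference of effects was 21 without water replicate 3, 106 without the replicate 1 arrays and 480 with the block. In October it was 0, or 1 with median scaling and 2 with the block, and in August 1, or 2 with the block. For October against August it was 2, and 1 to 5 elsewhere. For the partner genes in the culture, 2 passed, or 1 with median scaling and 1 with only the groups compared. With no detection calls, signals near the filter limit what can be said of the 32 untested genes.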

Other observations

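A pair of probe sets name several P450 genes each and so were not among the 62. The one shared by cyp-25A5 and cyp-25A4 had mean signals of 85.4 in the culture, 98.8 in August and 84.0 in October, against 99.98 in Z-medium and 96.7 in water. Its log2 changes were -0.23 ± 0.19 in the culture, 0.04 ± 0.19 in August and -0.20 ± 0.19 in October, and none passed in limma. The one shared by cyp-13A12 and cyp-13A11 lay far below the filter, with a mean log2 signal of 1.67.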
